A study of Mus musculus with 16 samples.

Results

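Pou5f1, Nanog, Utf1, Zfp42, Esrrb, Klf4, Tdgf1, Fgf4, Lin28a and Dppa5a, 10 genes known for their use in mouse pluripotent cells, were followed over 16 arrays. They were chosen by name: each has an entry of its own on the table, and none has several, so the 10 members stand for 10 of the 22180 genes tested. All cells came from the mouse embryonic stem cell line iGPA-Myo7a:mVenus, in which 3 hair cell transcription factors, Atoh1, Gfi1 and Pou4f3, are induced by doxycycline (Dox), and mVenus reports the hair cell gene Myo7a. Stem cells were left to form floating embryoid bodies (EBs) in medium with serum. Reporter-positive cells, known as induced hair cell-like cells (iHCs), were collected by flow sorting after trypsin treatment. The Dox+RA iHCs had Dox and retinoic acid (RA) from day 4, for 8 days up to day 12 (3 arrays) or for 4 days up to day 8 (3 arrays). The Dox iHCs had Dox alone over the same days, with 3 arrays at day 12 and 3 at day 8. Control EBs carried the same transgenes but had neither agent and were not sorted, with 2 arrays at day 12 and 2 at day 8. Treatment and sort therefore cannot be told apart in any comparison with control EBs, and in bulk RNA neither can fewer cells that hold a transcript and less transcript per cell. Undifferentiated stem cells were not analysed here.

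Mouse pluripotency rests on a network of transcription factors in which Pou5f1 (Oct4) and Sox2 bind DNA as a pair and act with Nanog, Esrrb and Klf4 on shared target genes. Utf1 and Zfp42 (Rex1) are classic targets and markers of that network, Fgf4 and Tdgf1 (Cripto) carry its signals between cells, and Lin28a and Dppa5a encode RNA-binding proteins of stem cells and the early embryo. EBs leave this state as they form derivatives of the germ layers, and the network is normally silent in hair cells, the sensory cells of the inner ear. Values here are log2 RMA values, so a difference of 1 is 2-fold. A gene was called higher or lower when limma's moderated test, fitted over all 22180 genes and adjusted by Benjamini-Hochberg, gave an adjusted p under 0.05.

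The labels were checked first. Atoh1 averaged 10.93 to 11.25 in the 4 iHC groups, against 5.03 and 4.89 in control EBs at day 12 and day 8, although the array may read the induced and the endogenous transcript alike. Of 13 measured hair cell markers, 13 were called higher in Dox+RA iHCs at day 12, at day 8 and in Dox iHCs at day 12, and 12 in Dox iHCs at day 8. Among all genes, 15.7% to 22.4% were called higher in these comparisons. The 13 include the induced Atoh1, Gfi1 and Pou4f3 and the reporter gene Myo7a, whose rise is built into the design. Arrays of 1 group correlated at 0.982 to 0.995. Among the 3 arrays of Dox iHCs at day 8, replicate 3 had the lowest mean of the hair cell markers, 8.23 beside 8.78 and 8.33 in replicates 1 and 2. Its mean of 5 proliferation genes was the highest, 7.20 beside 6.17 and 6.82. On both lists replicate 1 lay further from replicate 2 than replicate 3 did. Values of the members that were high on that array are also given without it. By construction, leaving out a high array makes their fall against control EBs larger and their difference from Dox+RA iHCs smaller. These values are therefore no test of the calls.

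Against control EBs, Nanog, Utf1, Tdgf1, Zfp42 and Fgf4 were called lower in iHCs of both treatments at both days. For Fgf4 the calls in Dox iHCs were lost when single arrays were left out. Lin28a was called lower in 3 of the 4 comparisons and Pou5f1 in 1. Esrrb, Klf4 and Dppa5a passed the test in none, and no member was called higher. By comparison, 5 of the 10 members were called lower in Dox+RA iHCs at day 12, where 22.4% of all genes were called lower and 22.4% higher. At day 8, 6 members were called lower in Dox+RA iHCs, with a background of 22.0% lower and 19.6% higher. In Dox iHCs 7 were called lower at day 12, beside 21.7% of all genes lower and 19.2% higher, and 6 at day 8, beside 18.9% lower and 15.7% higher. The median log2 difference of the 10 members was -0.47, -0.82, -0.52 and -0.74 in that order of comparisons, and the median of all genes was 0.07, 0.05, 0.02 and 0.02. The 4 comparisons share control EBs within a day, so they are not separate evidence. Where ranges of arrays are set side by side below, the share of all genes whose ranges also separate was not counted.

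**Figure D1:**
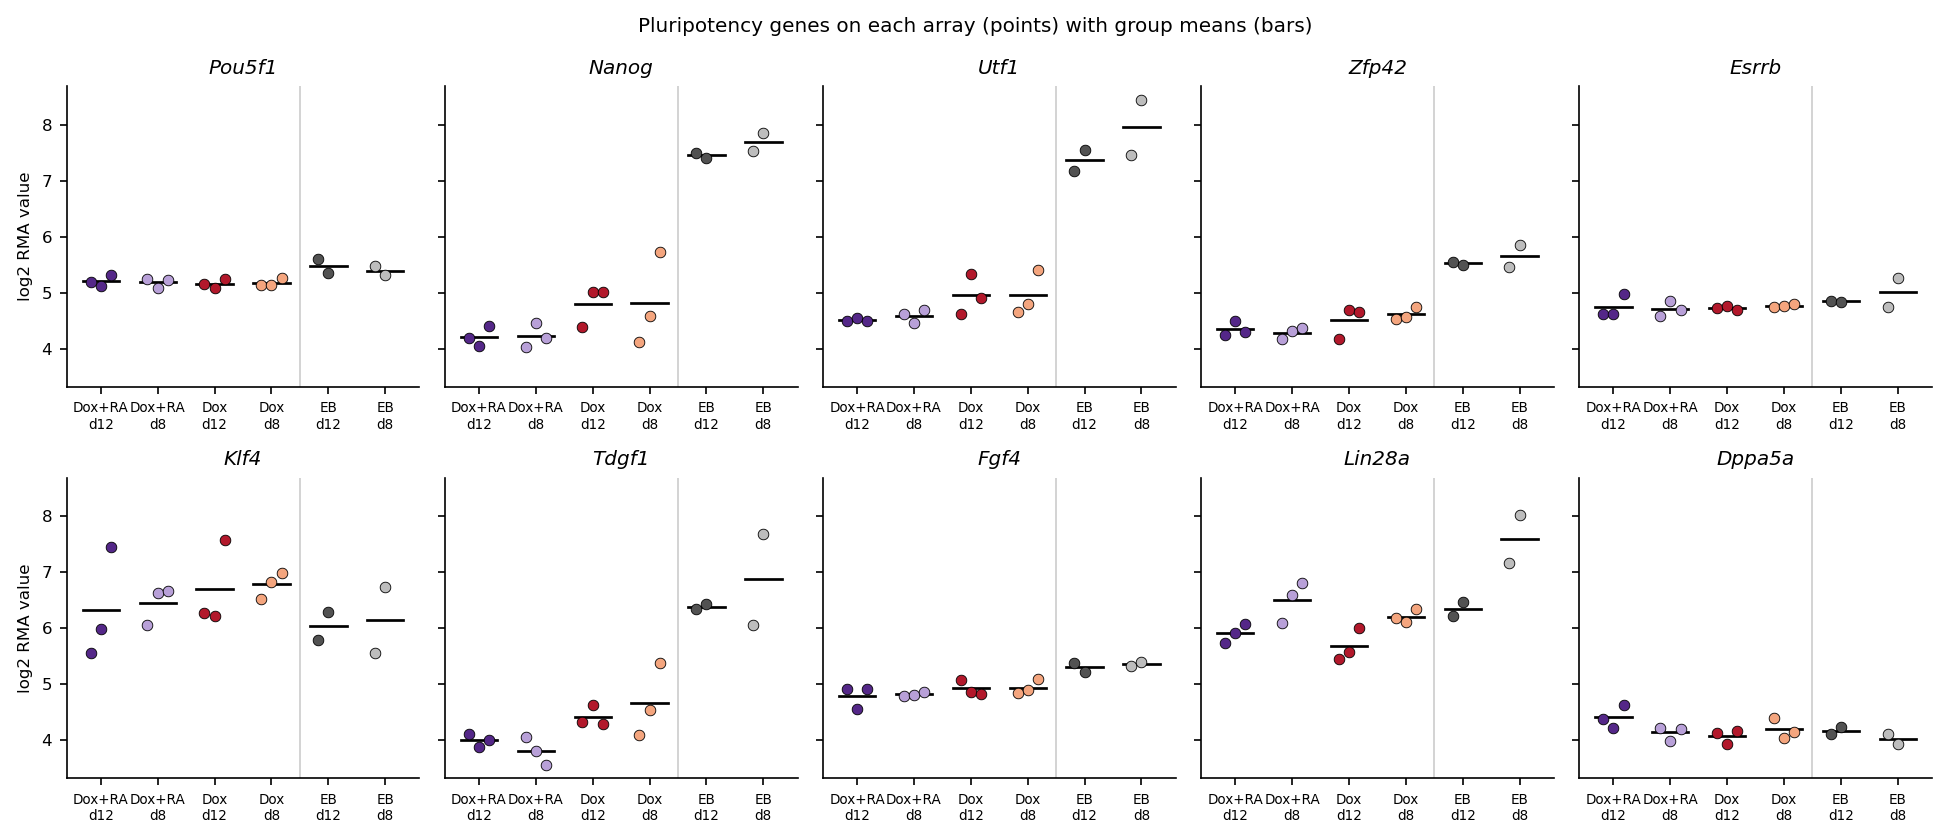
Level of each member on each array (vertical axis, log2 RMA value), with the 4 iHC groups left of the grey line and control EBs right of it. Points are arrays in the order of replicate number and bars are group means. Nanog, Utf1, Tdgf1 and Zfp42 separate iHCs from EBs on every array, while Esrrb, Klf4 and Dppa5a overlap.

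Nanog, the homeobox factor that holds embryonic stem cells in self-renewal, showed the largest log2 difference of the members in 3 of the 4 comparisons, the exception being Dox iHCs at day 8. In Dox+RA iHCs replicates 1, 2 and 3 had 4.20, 4.05 and 4.40 at day 12 and 4.03, 4.46 and 4.19 at day 8. In Dox iHCs the values were 4.39, 5.01 and 5.02 at day 12 and 4.13, 4.59 and 5.72 at day 8. Control EBs had 7.49 and 7.41 at day 12 and 7.54 and 7.86 at day 8. The highest iHC array, replicate 3 of the Dox iHCs at day 8, was still below the lowest EB array. Nanog was 9.41-fold lower in Dox+RA iHCs than in control EBs at day 12 (log2 difference -3.23 ± 0.33, limma SE, adjusted p = 1.07e-06). At day 8 it was 11.1-fold lower in Dox+RA iHCs (-3.47 ± 0.33, limma adjusted p = 6.12e-07). In Dox iHCs it was 6.25-fold lower at day 12 and 7.39-fold lower at day 8, with limma adjusted p = 9.98e-06 and 6.19e-06. Leaving out replicate 3 of the Dox iHCs changed the day 8 difference of -2.89 to -3.34.

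Utf1, a chromatin-bound factor of undifferentiated cells, was lower in the same 4 comparisons. Dox+RA iHCs had 4.51, 4.55 and 4.50 at day 12 and 4.61, 4.46 and 4.70 at day 8. Dox iHCs had 4.63, 5.33 and 4.90 at day 12 and 4.65, 4.81 and 5.41 at day 8, and control EBs had 7.17 and 7.56 at day 12 and 7.46 and 8.45 at day 8. No iHC array reached the EB range at either day. Utf1 was 7.18-fold lower in Dox+RA iHCs at day 12 (-2.84 ± 0.27, limma adjusted p = 4.53e-07) and 10.3-fold lower at day 8 (-3.36 ± 0.27, limma adjusted p = 9.87e-08). The difference in Dox iHCs was 5.32-fold at day 12 and 7.98-fold at day 8, where the log2 difference of -3.00 became -3.22 without replicate 3 of the Dox iHCs.

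Zfp42, a zinc finger protein used as a marker of the naive state, had smaller log2 differences. It averaged 4.35 ± 0.13 in Dox+RA iHCs at day 12 and 4.29 ± 0.10 at day 8, and 4.51 ± 0.29 and 4.62 ± 0.11 in Dox iHCs at those days (SD, n = 3 each). Control EBs averaged 5.52 ± 0.03 at day 12 and 5.66 ± 0.28 at day 8 (SD, n = 2 each). The ranges did not overlap: the 12 iHC arrays ran from 4.17 to 4.75 and the 4 EB arrays from 5.47 to 5.86. Zfp42 was 2.26-fold lower in Dox+RA iHCs at day 12 and 2.60-fold lower at day 8, and 2.02-fold and 2.07-fold lower in Dox iHCs (limma adjusted p from 3.5e-06 to 7.88e-05). Without replicate 3 of the Dox iHCs their day 8 difference of -1.05 became -1.11.

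As a description, the DNA just before the start sites of Nanog, Utf1 and Zfp42 is shown (RefSeq, GRCm38.p6, 250 bases up to the start, read 5′ to 3′ on the gene's strand). The 250 bases printed lie at chr6:122707239-122707488 for Nanog (plus strand), chr7:139943606-139943855 for Utf1 (plus strand) and chr8:43307010-43307259 for Zfp42 (minus strand). Capitals mark matches, on either strand, to the POU word ATGCAAA and the SOX word CATTGT, the letters that Pou5f1 and Sox2 are known to read.
Nanog: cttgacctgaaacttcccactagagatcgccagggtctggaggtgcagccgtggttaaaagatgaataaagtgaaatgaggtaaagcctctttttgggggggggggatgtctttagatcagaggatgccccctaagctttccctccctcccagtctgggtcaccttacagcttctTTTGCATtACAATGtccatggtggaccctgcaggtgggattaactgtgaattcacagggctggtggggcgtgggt
Utf1: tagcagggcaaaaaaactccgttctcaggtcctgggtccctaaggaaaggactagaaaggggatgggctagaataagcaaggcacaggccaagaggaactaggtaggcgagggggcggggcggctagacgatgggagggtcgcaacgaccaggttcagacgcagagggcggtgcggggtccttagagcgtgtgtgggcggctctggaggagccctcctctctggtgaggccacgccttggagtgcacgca
Zfp42: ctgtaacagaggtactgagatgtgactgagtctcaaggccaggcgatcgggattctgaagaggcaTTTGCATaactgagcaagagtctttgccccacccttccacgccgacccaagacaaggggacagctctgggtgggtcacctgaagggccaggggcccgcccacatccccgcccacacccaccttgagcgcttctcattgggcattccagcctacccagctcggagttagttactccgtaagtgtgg
In Nanog both words stand 1 base apart, 75 to 62 bases before the start, in the reverse of the orientation searched. Zfp42 holds a POU word without a SOX word, 185 to 179 bases before the start. Utf1 holds neither word in this window but 4 copies of the GC box GGGCGG. The GC box is also in the Zfp42 window, 91 to 86 and 79 to 74 bases before the start.

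These letters were searched on both strands in 32851 RefSeq windows of 27025 genes, each from 250 bases before to 50 after a start. The POU word was in 4.63% of the windows, the SOX word in 12.6% and the GC box in 35.7%. The joined pair was in 2 windows, both of them Nanog's and both covering the same site. Of the members 9 have a window, with 12 windows in all, and 3 of the 12 hold the POU word, 5 the SOX word and 7 the GC box. By gene, the POU word is in 2 (Nanog and Zfp42), the SOX word in 4 and the GC box in 7. The KLF box GGGTGG, also searched, was in 31.5% of all windows and in 7 of the 12 member windows, of 5 genes. Tdgf1 and Fgf4, also called lower in every comparison with control EBs but not printed, hold the GC box and neither the POU nor the SOX word in their windows. A match says only that the letters are there, and a lack of one holds for these windows only. Whether the letters bear on the differences was not tested.

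The signalling members were lower too. Tdgf1, the co-receptor through which Nodal acts, had 4.11, 3.88 and 4.01 in Dox+RA iHCs at day 12 and 4.05, 3.81 and 3.57 at day 8. Dox iHCs had 4.33, 4.63 and 4.28 at day 12 and 4.10, 4.54 and 5.39 at day 8, against 6.35 and 6.43 in control EBs at day 12 and 6.06 and 7.68 at day 8. The 2 EB arrays of day 8 differed from each other by more than any 2 arrays of an iHC group. Tdgf1 was 5.24-fold lower in Dox+RA iHCs at day 12 (-2.39 ± 0.38) and 8.36-fold lower at day 8 (-3.06 ± 0.38), with limma adjusted p = 8.57e-05 and 8.38e-06. In Dox iHCs the log2 difference was -1.97 at day 12 and -2.20 at day 8. Without replicate 2 of the day 8 EBs the day 8 value became -1.39 with limma adjusted p = 0.00758, and without replicate 3 of the Dox iHCs it became -2.55. Without the same EB array the day 8 difference in Dox+RA iHCs became -2.25.

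Fgf4, the growth factor that pushes stem cells towards differentiation, differed in all 4 comparisons by less than 2-fold. Its 12 iHC arrays ran from 4.57 to 5.09 and its 4 EB arrays from 5.22 to 5.40, without overlap. The log2 difference was -0.51 ± 0.12 in Dox+RA iHCs at day 12 and -0.54 ± 0.12 at day 8, and -0.38 ± 0.12 and -0.42 ± 0.12 in Dox iHCs (limma adjusted p from 0.00195 to 0.0218). Without replicate 3 of the Dox iHCs their day 8 difference became -0.50. In Dox iHCs the call was lost at day 8 without replicate 2 of the EBs or replicate 1 of the iHCs (limma adjusted p = 0.0934 and 0.0516). At day 12 it was lost without replicate 1 of the EBs or replicate 2 or 3 of the Dox iHCs (limma adjusted p = 0.181, 0.0628 and 0.0668).

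Pou5f1, the POU factor at the centre of the network, differed little between groups. Dox+RA iHCs had 5.19, 5.12 and 5.32 at day 12 and 5.25, 5.09 and 5.22 at day 8. Dox iHCs had 5.15, 5.08 and 5.25 at day 12 and 5.13, 5.14 and 5.27 at day 8, against 5.61 and 5.35 in control EBs at day 12 and 5.47 and 5.31 at day 8. Within each day no iHC array reached the EB range, but the gaps were small. Pou5f1 was called lower in Dox iHCs at day 12 (-0.32 ± 0.11, limma adjusted p = 0.0254), a call lost without replicate 1 of the EBs (-0.19, limma adjusted p = 0.294) and without replicate 1 or 2 of those iHCs (limma adjusted p = 0.0557 and 0.0791). In the other comparisons it was -0.27 in Dox+RA iHCs at day 12 (limma adjusted p = 0.0508), -0.20 at day 8 and -0.21 in Dox iHCs at day 8 (limma adjusted p = 0.141 for both). In Dox+RA iHCs at day 12 it passed without their replicate 3 (limma adjusted p = 0.0327) or replicate 2 of the EBs (limma adjusted p = 0.0254), and also with dim genes left out, array weights or the mean of entries (limma adjusted p from 0.0172 to 0.0498). With the replicate number as a block, these 3 passed the test, at -0.31 (limma adjusted p = 0.00817), -0.24 (limma adjusted p = 0.0315) and -0.25 (limma adjusted p = 0.0297).

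Esrrb, an orphan nuclear receptor of the naive state, averaged between 4.72 and 4.77 in the iHC groups, against 4.85 ± 0.01 in control EBs at day 12 and 5.01 ± 0.37 at day 8 (SD, n = 2 each). The log2 difference ran from -0.11 to -0.29 and was not called. Its 2 EB arrays of day 8 stood at 4.74 and 5.27, and without the lower of them, replicate 1, Esrrb was called lower in Dox+RA iHCs (-0.55, limma adjusted p = 0.00789) and in Dox iHCs (-0.49, limma adjusted p = 0.0185).

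Klf4, a Krüppel-like factor that many differentiated epithelia also use, was the one member with a positive difference in all 4 comparisons, and none passed the test. Replicate 3 was high at day 12: Dox+RA iHCs had 5.56, 5.99 and 7.46 and Dox iHCs 6.27, 6.22 and 7.58, against 5.79 and 6.30 in control EBs. At day 8 Klf4 had 6.05, 6.63 and 6.67 in Dox+RA iHCs and 6.53, 6.83 and 6.99 in Dox iHCs, against 5.56 and 6.73 in control EBs. The intervals were wide, from -0.79 to 1.36 in Dox+RA iHCs at day 12 and from -0.44 to 1.71 in Dox iHCs at day 8 (95%), so a 2-fold rise of Klf4 lies inside both intervals and a 2-fold fall lies outside them.

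Lin28a, which blocks the maturation of let-7 microRNAs, was called lower in both treatments at day 8 and in Dox iHCs at day 12. At day 8 it had 6.10, 6.60 and 6.81 in Dox+RA iHCs and 6.18, 6.11 and 6.34 in Dox iHCs, against 7.16 and 8.03 in control EBs. Both treatments stayed below the EB range, with a log2 difference of -1.09 ± 0.24 in Dox+RA iHCs (limma adjusted p = 0.00167) and -1.39 ± 0.24 in Dox iHCs (limma adjusted p = 0.000314). At day 12 it had 5.74, 5.92 and 6.08 in Dox+RA iHCs and 5.45, 5.58 and 6.0 in Dox iHCs, against 6.22 and 6.47 in control EBs. The difference was -0.44 ± 0.24 in Dox+RA iHCs (limma adjusted p = 0.159) and -0.67 ± 0.24 in Dox iHCs (limma adjusted p = 0.0363). With the replicate block the value in Dox+RA iHCs was -0.55 and passed the test (limma adjusted p = 0.0111), as did -0.44 with these groups alone in the fit (limma adjusted p = 0.0327). The call in Dox+RA iHCs at day 8 was lost without replicate 2 of the EBs (-0.66, limma adjusted p = 0.0602), and the call in Dox iHCs at day 12 was lost without either EB array of that day (-0.54, limma adjusted p = 0.222, and -0.80, limma adjusted p = 0.0651) and without replicate 1 or 2 of those iHCs (limma adjusted p = 0.117 and 0.0894).

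Dppa5a, an RNA-binding protein of the early embryo and germ line, was as dim in control EBs as in iHCs. Its 12 iHC arrays ran from 3.93 to 4.63 and its 4 EB arrays from 3.94 to 4.23, on a table whose values run from 1.44 to 12.3. The log2 difference lay between -0.10 and 0.24 and was not called. The table gives no detection calls, and several members, Nanog and Tdgf1 among them, have pseudogene copies whose share in a probe set's signal was not tested.

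**Figure D2:**
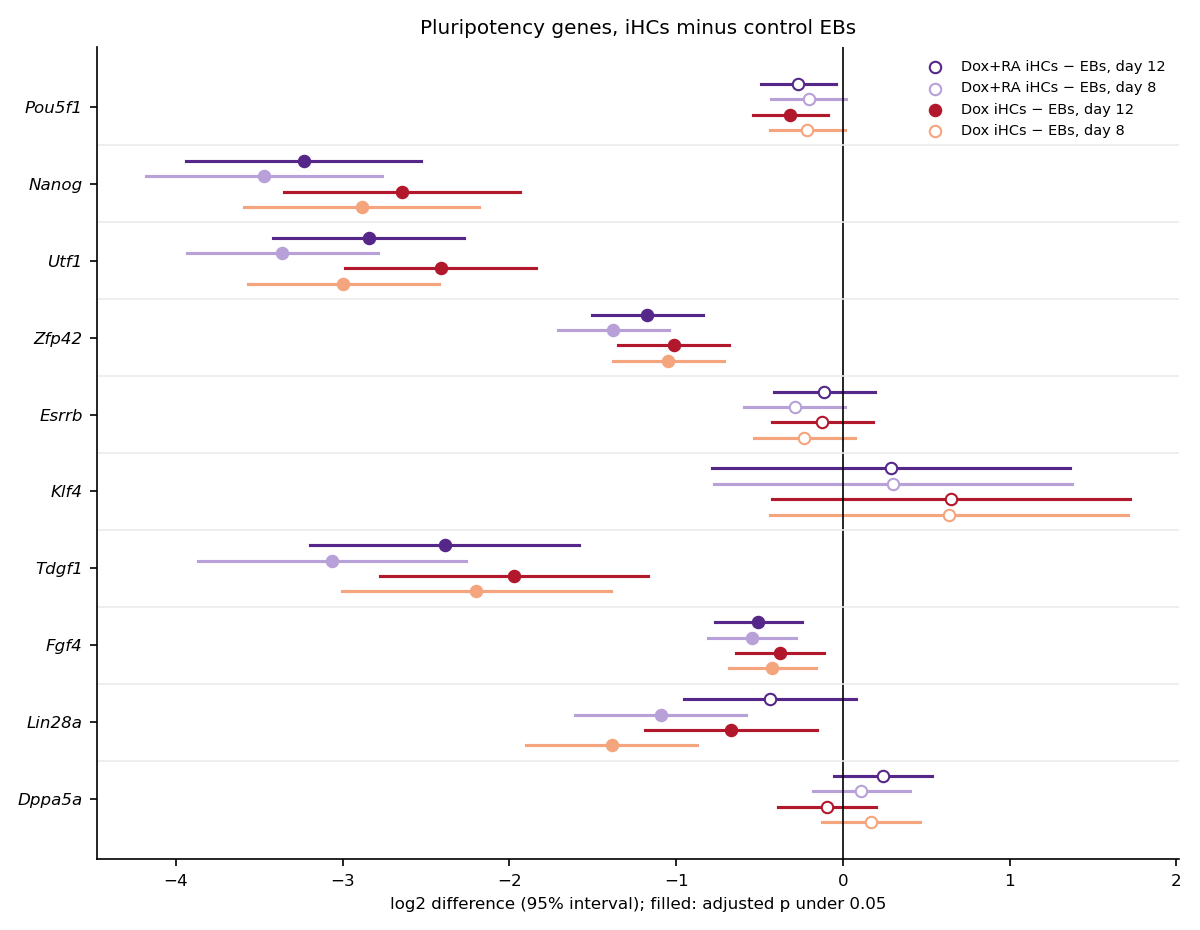
Log2 difference of each member between iHCs and control EBs (horizontal axis) with its 95% interval, for Dox+RA and Dox iHCs at day 12 and day 8. Filled points passed the test at an adjusted p under 0.05. Nanog, Utf1, Tdgf1, Zfp42 and Fgf4 are filled in all 4 comparisons, and the Klf4 intervals all hold 0.

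Dox+RA iHCs were also compared with Dox iHCs, both of them sorted. At day 8 the mean of the proliferation genes differed between them too, from 5.42 to 5.87 with Dox+RA against 6.17 to 7.20 with Dox. Its part in the differences of the members was not tested. None of the 10 members passed limma's test at day 12, where 0.541% of all genes were called lower and 0.383% higher, nor at day 8, where 2.89% were called lower and 2.05% higher. At an unadjusted p under 0.05 there was 1 member at day 12, Dppa5a, and 2 at day 8, Tdgf1 and Zfp42. The same threshold was passed by 2674 of all genes at day 12 and by 4188 at day 8. Tdgf1 at day 8 had the largest difference, -0.86 with a 95% interval from -1.58 to -0.14 (limma adjusted p = 0.168). Nanog differed by -0.59 at day 12 and by -0.59 at day 8, and Utf1 by -0.43 and -0.37, with intervals that hold 0. Zfp42 differed by -0.33 at day 8 (limma adjusted p = 0.206), with 4.17 to 4.37 in Dox+RA iHCs and 4.53 to 4.75 in Dox iHCs. Dppa5a at day 12 was 0.34 higher in Dox+RA iHCs on the log2 scale, which did not pass the test (limma adjusted p = 0.266). The day 8 differences were smaller without replicate 3 of the Dox iHCs, where Nanog differed by -0.13, Utf1 by -0.14, Zfp42 by -0.27 and Tdgf1 by -0.51. The difference between Dox+RA and Dox iHCs at day 12 was also set against that at day 8. None of the members passed, beside 0.00902% of all genes called. Unadjusted p was under 0.05 for 1 member and for 1276 of all genes.

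Over time, 1 member was called in the main fit, which leaves the arrays unpaired. Lin28a was lower in control EBs at day 12 than at day 8, with 6.22 and 6.47 against 7.16 and 8.03, a 2.37-fold fall (log2 difference -1.25 ± 0.26, limma adjusted p = 0.014). In that comparison 1.42% of all genes were called lower and 2.33% higher. The call was lost without replicate 2 of the day 8 EBs (-0.81, limma adjusted p = 0.241) and without replicate 1 of the day 12 EBs (-1.12, limma adjusted p = 0.156). In Dox+RA iHCs the Lin28a difference between day 12 and day 8 was -0.59 ± 0.22 (limma adjusted p = 0.15), in a comparison with 2.61% of genes called lower and 1.78% higher. In Dox iHCs it was -0.53 ± 0.22 (limma adjusted p = 0.159), with 4.66% called lower and 3.39% higher. Both passed the test with the replicate block, at limma adjusted p = 0.0185 and 0.022.

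The other members showed no called change between the days. At an unadjusted p under 0.05 there were 2 members in Dox+RA iHCs (Lin28a and Dppa5a). There was 1 each, Lin28a, in Dox iHCs and in control EBs. Of all genes, unadjusted p was under 0.05 for 3918 in Dox+RA iHCs, 4762 in Dox iHCs and 3131 in control EBs. In Dox iHCs the log2 difference between the days was -0.00501 for Nanog and -0.00399 for Utf1, with 95% intervals from -0.64 to 0.63 and from -0.52 to 0.51. Without replicate 3 of the Dox iHCs at day 8 these differences became 0.45 and 0.22, which did not pass the test (limma adjusted p = 0.265 and 0.711). In control EBs Utf1 differed by -0.59 and Tdgf1 by -0.48 between the days, and neither passed the test. The change over time in iHCs was also set against that in control EBs. No member passed (0 at an unadjusted p under 0.05), beside 2.62% of all genes called in either direction with Dox+RA and 2.84% with Dox. Unadjusted p was under 0.05 for 3012 genes with Dox+RA and for 3155 with Dox. For Lin28a the difference of changes was 0.66 with Dox+RA and 0.71 with Dox (limma adjusted p = 0.431 and 0.362).

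**Figure D3:**
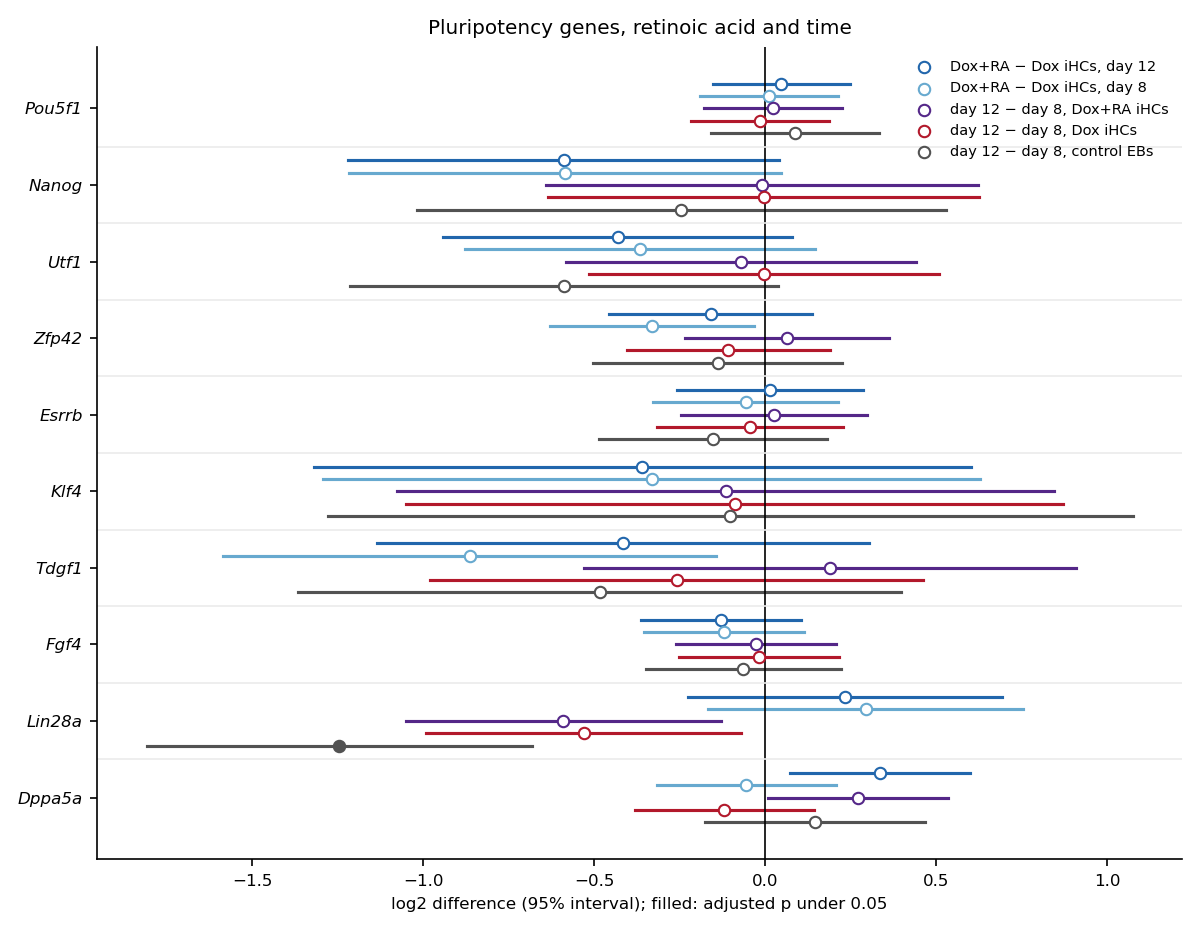
Log2 difference of each member (horizontal axis) with its 95% interval for Dox+RA against Dox iHCs and for day 12 against day 8 within Dox+RA iHCs, Dox iHCs and control EBs. Filled points passed the test at an adjusted p under 0.05. The 1 filled point is Lin28a in control EBs over time, at -1.25.

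The rest of the pluripotency network was read from a list of 21 further genes, of which 18 have an entry of their own. Against control EBs, Dox+RA iHCs had 11 of them called lower and 1 higher at day 12, and 14 lower and 1 higher at day 8. Dox iHCs had 13 lower and 1 higher at day 12, and 15 lower and 1 higher at day 8. Over these comparisons 18.9% to 22.4% of all genes were called lower and 15.7% to 22.4% higher. The gene called higher was Sox2 each time, the partner of Pou5f1 in stem cells that neural and sensory progenitors of the inner ear also use. Sox2 averaged 8.75 ± 0.20 at day 12 and 9.72 ± 0.20 at day 8 in Dox+RA iHCs, 8.67 ± 0.13 and 9.28 ± 0.08 in Dox iHCs (SD, n = 3 each), and 7.76 ± 0.07 and 8.21 ± 0.42 in control EBs (SD, n = 2 each). The log2 difference was 0.99 and 1.51 in Dox+RA iHCs at day 12 and day 8 and 0.92 and 1.07 in Dox iHCs (limma adjusted p from 2.43e-06 to 0.000308). The median log2 difference of the 18 genes was -0.88 and -0.94 in Dox+RA iHCs at day 12 and day 8 and -0.77 and -0.92 in Dox iHCs.

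Among the genes of that list called lower was Dppa2, a chromatin factor of pluripotent cells, at -2.35 and -2.57 in Dox+RA iHCs at day 12 and day 8 and at -1.86 and -2.29 in Dox iHCs. Tbx3, a T-box factor of the naive state, differed by -2.08, -1.77, -1.95 and -1.39 in the same order. Tfcp2l1, another naive factor, differed by -1.05 and -2.09 in Dox+RA iHCs at day 12 and day 8, and by -0.75 and -2.04 in Dox iHCs, of which the day 12 call in Dox iHCs was lost without replicate 2 of the EBs (-0.40, limma adjusted p = 0.12). Tfcp2l1 was itself lower in control EBs at day 12 than at day 8, by -1.21 (limma adjusted p = 0.00258). Zscan10, a zinc finger partner of the core factors, differed by -1.35 and -2.32 in Dox+RA iHCs and by -1.19 and -2.05 in Dox iHCs.

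Genes of the primed epiblast, the later form of pluripotency, were mixed. Of 7 measured, Dox+RA iHCs had 5 called lower at day 12, and 3 lower and 1 higher at day 8, while Dox iHCs had 5 lower and 1 higher at day 12, and 2 lower and 1 higher at day 8. The last counts stand beside 18.9% of all genes called lower and 15.7% higher, and the others beside 21.7% to 22.4% lower and 19.2% to 22.4% higher. Dnmt3b, the de novo DNA methyltransferase, differed by -1.95 and -2.52 in Dox+RA iHCs at day 12 and day 8, and by -1.90 and -1.83 in Dox iHCs. Otx2, a homeobox factor of the epiblast and forebrain, differed by -1.39 and -1.69, and by -1.09 and -1.27, and all 4 of its calls were lost without replicate 2 of the EBs of that day (limma adjusted p from 0.0524 to 0.331). Those of day 12 and day 8 in Dox iHCs were also lost without single arrays of the iHCs (limma adjusted p from 0.0535 to 0.0712). The gene called higher was Pou3f1 (Oct6), a POU factor of epiblast and neural cells, at 1.23 in Dox+RA iHCs at day 8 and at 1.37 and 2.31 in Dox iHCs at day 12 and day 8, and at 0.77 in Dox+RA iHCs at day 12, which was not called (limma adjusted p = 0.0854). Without replicate 2 of the EBs Pou3f1 lost its call in Dox+RA iHCs at day 8 (1.22, limma adjusted p = 0.0562) and in Dox iHCs at day 12 (1.19, limma adjusted p = 0.0576). The median of the 7 genes lay between -0.50 and -0.80 over the 4 comparisons.

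**Figure D4:**
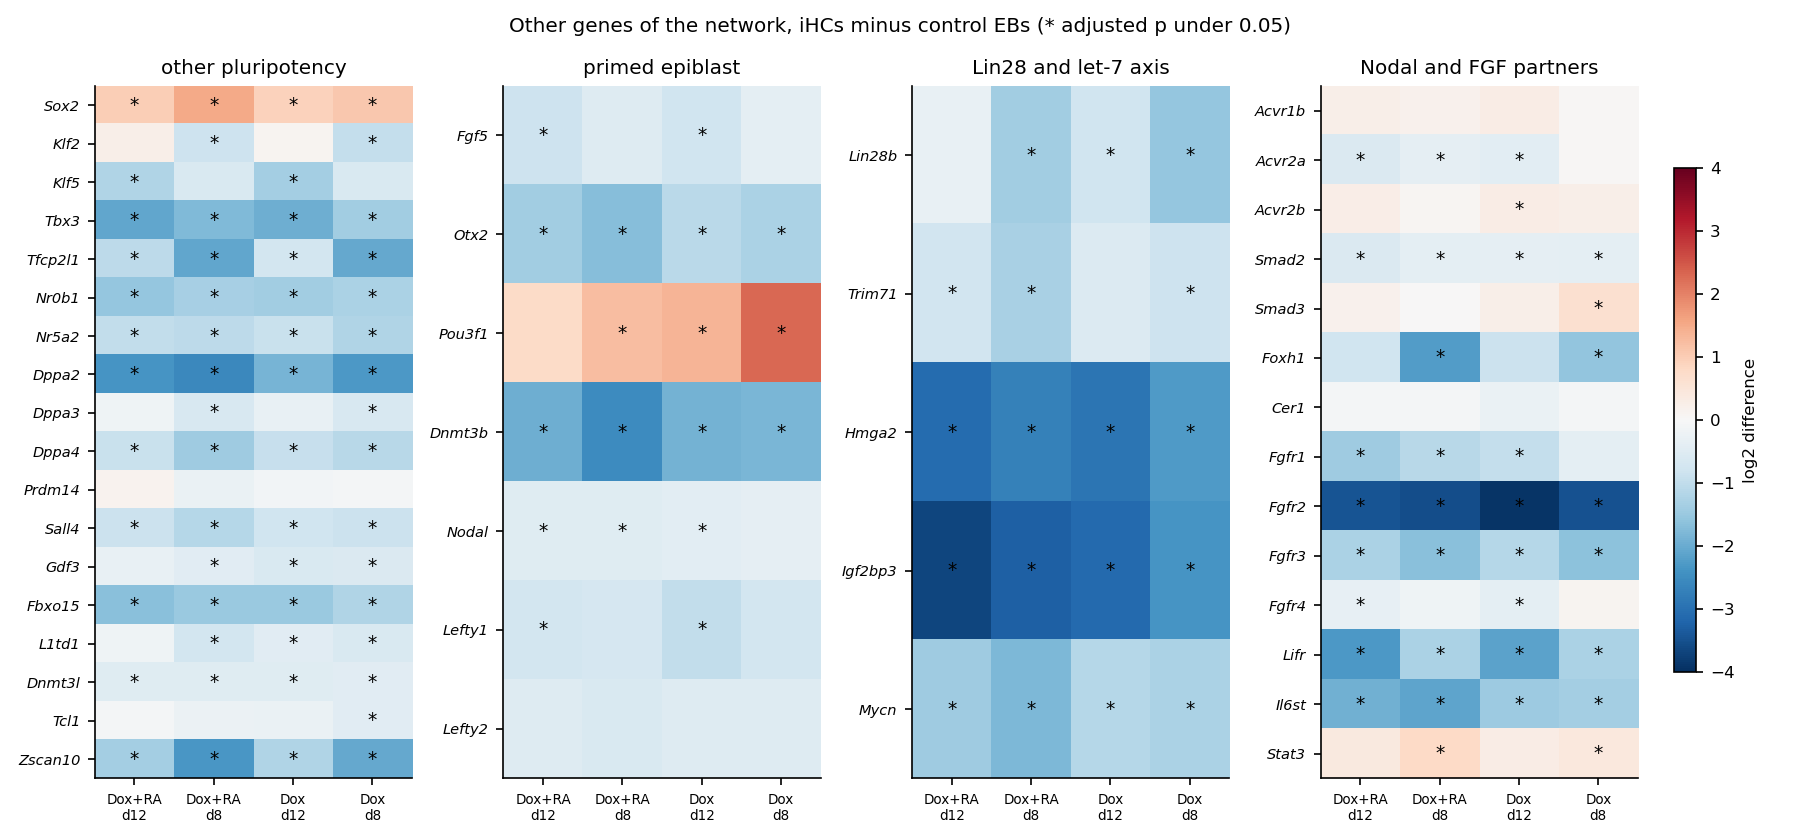
Log2 difference between iHCs and control EBs (colour, blue for lower in iHCs and red for higher) for genes of 4 lists, with 1 column for each comparison. Stars mark an adjusted p under 0.05. Sox2 is red with a star in all 4 columns, and Igf2bp3, Hmga2 and Fgfr2 are among the deepest blue.

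Partners of Lin28a in the let-7 pathway, in which let-7 microRNAs hold down growth genes of the embryo, were mostly called lower. Of 5 measured, 4 were called lower in Dox+RA iHCs at day 12 and all 5 at day 8, and likewise 4 and 5 in Dox iHCs, with none higher. The share of all genes called lower was 18.9% to 22.4% in these comparisons, and 15.7% to 22.4% were called higher. Igf2bp3, an RNA-binding let-7 target, differed by -3.68 and -3.27 in Dox+RA iHCs at day 12 and day 8 and by -3.10 and -2.36 in Dox iHCs. Hmga2, a chromatin protein and let-7 target, differed by -3.08, -2.71, -2.92 and -2.26. Lin28b, the sister gene of Lin28a, differed by -1.39 and -1.55 at day 8 with Dox+RA and Dox. At day 12 its differences were -0.30 with Dox+RA, which was not called (limma adjusted p = 0.143), and -0.78 with Dox. Within control EBs, Lin28b was lower at day 12 than at day 8 by -1.14 (limma adjusted p = 0.00141). The median of the 5 genes lay between -1.14 and -1.80 over the 4 comparisons with EBs.

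Receptors and effectors of signals that stem cells use were read from 14 measured genes, of which 3 (Lifr, Il6st and Stat3) serve leukaemia inhibitory factor and the rest Nodal or fibroblast growth factors. Dox+RA iHCs had 8 called lower and none higher at day 12, and 8 lower and 1 higher at day 8. Dox iHCs had 8 lower and 1 higher at day 12, and 6 lower and 2 higher at day 8. Beside these counts, 18.9% to 22.4% of all genes were called lower and 15.7% to 22.4% higher. Fgfr2, a receptor for fibroblast growth factors, fell furthest, at -3.47 and -3.53 in Dox+RA iHCs at day 12 and day 8 and at -3.93 and -3.47 in Dox iHCs. Lifr and Il6st, the 2 chains of the receptor for leukaemia inhibitory factor, differed by -2.31 and -1.91 in Dox+RA iHCs at day 12. Foxh1, the nuclear partner of Smad2 and Smad3 under Nodal, was called lower at day 8, at -2.22 with Dox+RA and -1.59 with Dox, and not at day 12, at -0.80 and -0.86. Without replicate 2 of the EBs the Foxh1 call in Dox iHCs at day 8 was lost (-0.66, limma adjusted p = 0.137). The genes called higher were Stat3 at day 8 (0.79 with Dox+RA and 0.44 with Dox), and, in Dox iHCs, Smad3 at day 8 (0.63) and Acvr2b at day 12 (0.29). The 3 calls in Dox iHCs were lost when single arrays were left out, among them replicate 2 of the EBs, without which limma adjusted p was 0.357 for Stat3, 0.0763 for Smad3 and 0.226 for Acvr2b, and Acvr2b was also not called with the replicate block (limma adjusted p = 0.0556). The median of the 14 genes lay between -0.22 and -0.58.

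Markers of several other cells were lower in iHCs along with the members. Of 9 germ cell genes measured, a cell type that uses several of the members, 4 were called lower in Dox+RA iHCs at day 12 and 5 at day 8, and 5 at both days in Dox iHCs. The mean of these 9 ran from 4.14 to 4.34 over the 12 iHC arrays, against 4.78 to 4.95 over the EB arrays, and Kit had the largest difference, from -1.76 to -2.34. Late germ cell markers were dim everywhere, with group means of 3.15 to 3.29 in iHCs and 3.41 and 3.77 in control EBs at day 12 and day 8 for Ddx4. All 6 mesenchyme markers and all 5 proliferation genes measured were called lower in every iHC group. The mean of the proliferation genes ran from 4.89 to 5.01 in Dox+RA iHCs at day 12, from 5.42 to 5.87 at day 8, from 5.35 to 5.64 in Dox iHCs at day 12 and from 6.17 to 7.20 at day 8, against 8.63 to 8.73 and 8.76 to 8.98 in control EBs at day 12 and day 8. Other lists of 6 genes each were lower in part or whole. In Dox+RA iHCs at day 12, Dox+RA iHCs at day 8, Dox iHCs at day 12 and Dox iHCs at day 8, 6, 6, 6 and 6 genes of blood and endothelium, 5, 6, 5 and 6 cardiac, 5, 3, 5 and 3 endoderm and 3, 3, 3 and 4 epithelium genes were called lower, with none higher. Epithelium markers averaged 6.42 to 7.33 over iHC arrays, against 7.44 to 7.88 over EB arrays. Mesenchyme markers averaged 4.32 to 5.08 over iHC arrays, against 9.12 to 9.96 over EB arrays. All counts of called markers given here stand beside 18.9% to 22.4% of all genes called lower and 15.7% to 22.4% higher. The part of these cells, of proliferation and of the sort in the values of the members was not tested.

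The same arrays that were high in 1 member were often high in others. Replicate 3 of the Dox iHCs at day 8 had the highest value of the 12 iHC arrays for Nanog, Utf1, Tdgf1, Zfp42 and Fgf4. Within its group it also had the highest mean of the cardiac (5.27 beside 4.66 and 4.99), endoderm (6.06 beside 5.37 and 5.58) and germ cell (4.34 beside 4.21 and 4.21) lists. The same held for the mesenchyme (4.91 beside 4.63 and 4.67) and epithelium (7.27 beside 6.62 and 6.90) lists. Its mean of the blood and endothelium list was the lowest of the group (5.14 beside 5.50 and 5.59). Replicate 2 of the EBs at day 8 had the highest value of all 16 arrays for Nanog, Utf1, Tdgf1, Zfp42, Fgf4, Lin28a and Esrrb, and the mean of its cardiac markers was 8.42 beside 7.91 in replicate 1. Its germ cell (4.95 beside 4.85), blood and endothelium (8.33 beside 8.26) and epithelium (7.88 beside 7.84) means were also higher. Its mesenchyme (9.12 beside 9.52) and endoderm (6.96 beside 7.02) means were lower than in replicate 1.

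**Figure D5:**
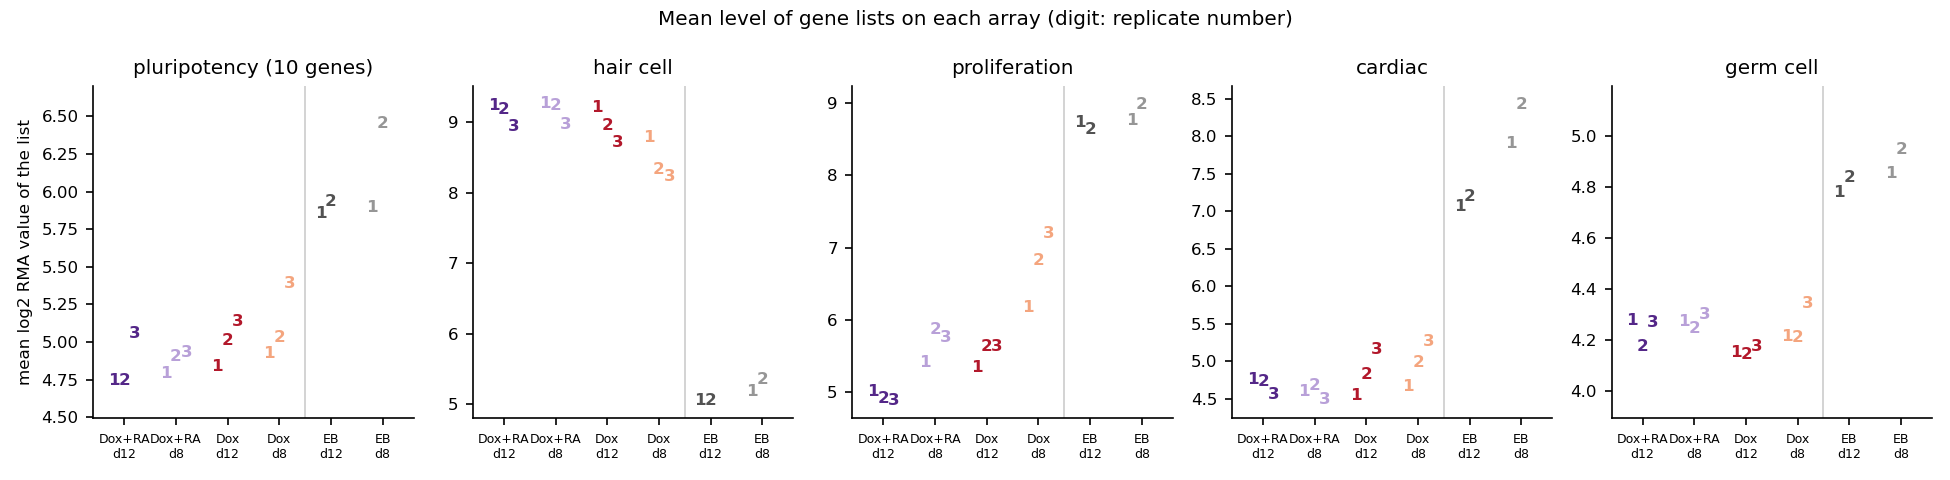
Mean log2 RMA value of 5 gene lists on each array (vertical axis, with a range of its own in each panel), where the digit is the replicate number and control EBs stand right of the grey line. In the Dox iHCs at day 8, replicate 3 is highest for the pluripotency, proliferation, cardiac and germ cell lists and lowest for the hair cell list.

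Genes outside the list whose values over the 16 arrays were most like the mean of the 10 members, each centred on its own mean, were Slc35f2 (Pearson r = 0.985), Shmt1 (0.984), Gldc (0.983), Ttll4 (0.980) and Ttf2 (0.980), among 5228 genes whose group means span at least 1 on the log2 scale. Gldc, the glycine decarboxylase, averaged 4.95 and 4.99 in Dox+RA iHCs at day 12 and day 8 and 5.31 and 5.37 in Dox iHCs, against 7.07 and 7.87 in control EBs. Shmt1, the cytosolic serine hydroxymethyltransferase, averaged 4.93 and 4.94 in Dox+RA iHCs and 4.88 and 5.32 in Dox iHCs, against 6.73 and 7.16 in control EBs. The correlations are a description and carry no p, since the 16 arrays fall into iHCs and EBs and that split alone gives high values.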

How the data were processed

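RNA of 16 samples was hybridised to 16 Mouse Gene 2.1 ST arrays from Affymetrix. The deposited values are log2 values, for which the submitters' processing notes name RMA in Expression Console; the version is not given in the sources used here. RMA corrects background, sets arrays to 1 distribution and can compress differences at low signal. The values (1.44 to 12.3, array medians 4.67 to 4.82, 0 missing) were used as deposited. Of 33708 entries, 23521 carry 1 symbol, 1814 several and 8373 none; for the 1082 genes with several entries the one of highest mean was kept, which left 22180 genes. Entrez IDs matched 23328 of these entries to RefSeq genes, with 0 symbols changed.

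The model over all genes (limma 3.58.1 in R 4.3.3) had 6 group means, lmFit, contrasts.fit and eBayes, 12 contrasts and Benjamini-Hochberg adjustment over 22180 genes in each contrast. Every p printed is that adjusted p unless named unadjusted, and a log2 difference carries its standard error from limma after the ± sign. The fit was tested on simulated data. Tables, promoter searches and figures were made with pandas 2.3.3 and matplotlib 3.10.9 under Python 3.11.15. The labels call the samples biological replicates, and the number of arrays limits the precision.

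The members, the lists, the tests and the alternatives were chosen with earlier results of these data known. Named genes are the 10 members, Gfi1, Pou4f3, Atoh1 and Myo7a as a check of the labels, up to 4 called genes in each direction with the largest difference from each list, and the 5 genes most like the members; the text gives a part of these, and Lin28b, Ddx4, Smad3 and Acvr2b also because a list or a count called for them. List genes without an entry of their own were not analysed here. After removal of group means, same-numbered arrays of the 6 pairs of iHC groups correlated at 0.147 to 0.513 in all 18 pairs, though the labels name no shared batch. The main fit left the arrays unpaired, and the replicate number entered as a block only in an alternative. Control EBs have 2 numbers only. The sources used here give neither strip nor scan date.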

Additional observations from a re-analysis of the deposited data

How the results depend on the processing

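Under 26 alternatives (16 that leave out 1 array and 10 others), the 120 member results gave 1820 values, of which 1786 kept their side of the threshold, 19 lost a call and 15 gained one. No called value changed sign (0), while 127 of the 1786, called in neither fit, did. Nanog, Utf1, Tdgf1 and Zfp42 kept their calls against control EBs under all alternatives that tested them. The filter on dim genes removes 5 members (Zfp42, Esrrb, Tdgf1, Dppa5a and Fgf4) from the test by its construction. Under it 3 members were called lower in Dox+RA iHCs at day 12 (Nanog, Utf1 and, gained, Pou5f1 at limma adjusted p = 0.038), 3 at day 8, 4 in Dox iHCs at day 12 and 3 at day 8. Asking for 2-fold as well left 4 in Dox iHCs at day 12. Leaving out 1 array gave 5 to 6, 5 to 7, 4 to 6 and 5 to 7 members called lower in the same order, and 0 to 1 over time in control EBs. With only the 2 EB groups in the fit, Lin28a over time was not called (0 members, limma adjusted p = 0.062), and in Dox iHCs at day 12 Pou5f1 and Fgf4 were lost with the groups of the contrast only (limma adjusted p = 0.0867 and 0.0534) and Lin28a after quantile normalization (-0.59, limma adjusted p = 0.053). In Dox+RA iHCs at day 12 Lin28a was gained with the groups of the contrast only (-0.44, limma adjusted p = 0.0327), and Pou5f1 with array weights (-0.30, limma adjusted p = 0.0172) and the mean of entries (limma adjusted p = 0.0498). With the replicate block, 1 member, Lin28a, was called lower over time in Dox+RA iHCs and 1 in Dox iHCs, and array weights also gave 1 in Dox+RA iHCs (-0.64, limma adjusted p = 0.0322). Beside these and the calls of Pou5f1 and Lin28a against EBs named above, the block changed no call of a member.

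Counts of all genes called moved as follows. The replicate block gave 722 for RA at day 12 (205 without it), 2436 for RA at day 8 (1094), 2010, 3139 and 1255 over time in Dox+RA iHCs, Dox iHCs and control EBs (972, 1785 and 831), and 1150, 1430 and 15 for the 3 interactions (time with Dox+RA, time with Dox, and RA by day; 582, 630 and 2). Array weights gave 635 and 2277 for RA at day 12 and day 8, 2299 and 3023 over time in Dox+RA and Dox iHCs, and 942, 1021 and 24 for the interactions. The groups of the contrast alone gave 29 for RA at day 12, 420 and 553 over time in Dox iHCs and control EBs, and 415 and 1 for the interactions of time with Dox and of RA by day. Without dim genes there were 393 over time in control EBs and 364, 389 and 0 for the interactions; a trended robust prior and all entries each gave 1 for RA by day. Asking for 2-fold left 3783, 3504, 3420 and 2640 against control EBs (Dox+RA day 12 and day 8, Dox day 12 and day 8; 9927, 9223, 9055 and 7675 without that condition), 70 and 250 for RA, 183, 277 and 307 over time and 347 and 383 for the time interactions. Leaving out 1 array gave 7761 to 9282, 7135 to 8631, 7210 to 8858 and 5614 to 7219 against control EBs, 55 to 393 and 333 to 1559 for RA, 297 to 998, 644 to 2598 and 317 to 951 over time, and 268 to 686, 266 to 1068 and 1 to 15 for the interactions. The cause of these movements was not tested. Groups of 2 and 3 arrays limit what could be called.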
